A study of Mus musculus with 6 samples.

Results

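The proteasome is the protease complex that breaks down ubiquitin-tagged proteins, and its genes were chosen in the count matrix by symbol: every row named Psma, Psmb, Psmc, Psmd, Psme, Psmf or Psmg followed by a number, without Psmb8 and Psmb9. The rule found 48 of the 24421 rows. Of these, 46 encode subunits, activators, an inhibitor or assembly factors. The remaining 2, Psmc3ip (a meiotic recombination factor) and Psme2b (an intronless copy of Psme2), match the rule by symbol only. The libraries came from Treg cells, the CD4+ T cells that restrain immune responses, sorted as CD4+YFP+ cells without treatment from spleens of female C57BL/6 mice aged 8 to 11 weeks. WT libraries (n = 3) were from Foxp3Cre mice and KO libraries (n = 3) from Foxp3Cre miR-142fl/fl mice. Both groups carried the allele that expresses a fusion of Cre and YFP from the endogenous Foxp3 promoter, so that miR-142 was deleted in Foxp3-expressing cells of the KO mice only.

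Outer rings of alpha subunits close the proteasome's core particle and gate its entrance, while the inner beta rings carry the proteolytic sites. A regulatory particle with a ring of ATPases (the base) and a lid captures, unfolds and deubiquitinates substrates, and dedicated chaperones assemble each module. Interferon gamma replaces the catalytic subunits Psmb5, Psmb6 and Psmb7 with the immunosubunits Psmb8, Psmb9 and Psmb10 and induces the activator Psme1/Psme2, a change known for reshaping the peptides made for MHC class I.

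The 6 libraries held 13883069 to 24042994 counts, at which 3 counts corresponded to 0.123 to 0.227 CPM. Levels below are CPM, counts scaled to library size with TMM factors, and calls are an FDR under 0.05 in edgeR's quasi-likelihood test over the 11658 genes that exceeded 1 CPM in 3 or more libraries. Mir142 had 0 counts in all 6 libraries, and Mir142b, annotated antisense to it, averaged 6.33 ± 2.50 CPM in the WT and 0.368 ± 0.0227 CPM in the KO libraries (SD, n = 3). All 7 Treg markers were present, summing to 4811 to 5543 CPM in WT and 6676 to 7680 CPM in KO. The markers did not move together. Il2ra stood at 725 to 798 CPM in WT and 2230 to 3070 CPM in KO, and Foxp3 and Tnfrsf18 were also higher in every KO library. Cd4 (1004 to 1042 in WT, 822 to 925 in KO) and Cd3e (625 to 732 and 582 to 593) were lower in every KO library. Ctla4 and Ikzf2 overlapped. KO replicate 1 stood apart. Its 9 neutrophil markers summed to 873 CPM against 16.3 or less in the other libraries, its 9 monocyte and macrophage markers to 2417 against 77.0 or less, its 8 B cell markers to 287 against 41.1 or less and its 6 CD8 and NK markers to 63.2 against 23.4 or less. The 4 erythroid markers summed to 11.8 CPM in it and at most 1.81 elsewhere, with Hba-a1 and Hbb-bs at 0 throughout. KO replicates 2 and 3 also lay above WT for neutrophil markers, at 10.4 and 16.3 against 4.05 to 5.11 CPM. Their monocyte and macrophage markers summed to 77.0 and 18.5 against 7.63 to 11.3 CPM in WT. Their B cell markers, at 8.85 and 13.1 CPM, lay below WT, and their CD8 and NK markers did not exceed the highest WT library. The part of these transcripts in the proteasome results was not tested, and the counts of calls are given also without KO replicate 1. The fit without it keeps KO replicates 2 and 3.

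The deleted gene encodes 2 mature miRNAs, shown because sites for them in the 3′ UTRs of proteasome genes are counted next. The sequences are those of RefSeq (GRCm38.p6, chr11:87756867-87756887 and chr11:87756903-87756925, plus strand), with the seed, bases 2 to 8, in capitals.
miR-142a-5p: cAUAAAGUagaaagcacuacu
miR-142a-3p: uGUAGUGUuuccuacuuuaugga
The seeds differ, so the miRNAs fall into separate families.

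Few proteasome genes held a 7-base match to either seed in their longest annotated 3′ UTR (GENCODE, GRCm38). None of those that did was called, where 11.6% of all tested genes were called higher and 7.27% lower. Such genes are too few for this count to be read as a result about the sites. Psma5 and Psme2 among them were called higher with DESeq2 and without KO replicate 2. ACACTAC, complementary to bases 2 to 8 of miR-142a-3p, was found in 1 of 46 tested genes, the lid gene Psmd11, against 7.08% of 10786 tested genes with a 3′ UTR. AACACTA, the same site moved by 1 base, was found in 0 of 46 (10.3% of all). ACTTTAT, complementary to the seed of miR-142a-5p, was found in 5 of 46 (15.9% of all): Psma5, Psme2, Psme2b, Psmf1 and Psmg2. The 19 genes called below had none of these letters in their longest annotated 3′ UTRs. Shorter sites were not sought, and the shares took no account of 3′ UTR length. All but the match in Psmg2 are shown in capitals with their flanks, to set them against the levels given further on.
Psmd11 (chr11:80471961-80471967, plus strand): gaaaaaggcttACACTACctaaagctgtg
Psma5 (chr3:108279867-108279873, plus strand): attgcccttagACTTTATttccagctctt
Psmf1 (chr2:151716749-151716755, minus strand): aaataaatagcACTTTATaacctgttttt
Psme2 (chr14:55587446-55587452, minus strand): aaatgatttatACTTTATgtata
Psme2b (chr11:48945360-48945366, minus strand): aaatgatttatACTTTATgtatat
The last 2 lines show how alike Psme2 and its copy are.

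Proteasome transcripts were higher in KO than in WT Treg cells. Of 46 genes tested, 19 rose and 0 fell, and 27 were not called. Among all 11658 genes, 11.6% rose and 7.27% fell, and among the 4595 genes with a mean above 50 CPM, the range of most subunits, 13.1% rose. The median log2 fold change was 0.30 (1.23-fold) for the 46 genes and 0.02 for all genes. Positive log2 fold changes were found for 42 genes and negative ones for 4: Psmb1 (-0.02), Psme3 (-0.11), Psmd5 (-0.16) and Psmg2 (-0.31). All KO libraries exceeded all WT libraries for 33 of 46 genes (22.2% of all genes), and below for 2, Psme3 and Psmg2 (18.8% of all genes). Required in edgeR's quasi-likelihood, likelihood ratio and exact tests together, the call held for 15 genes (10.6% of all genes). It was lost for Psma7, Psmc5 and the lid genes Psmd12 and Psmd14. In bulk libraries, a change in the kinds of cell sorted cannot be told apart from a change in RNA per cell.

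**Figure D1:**
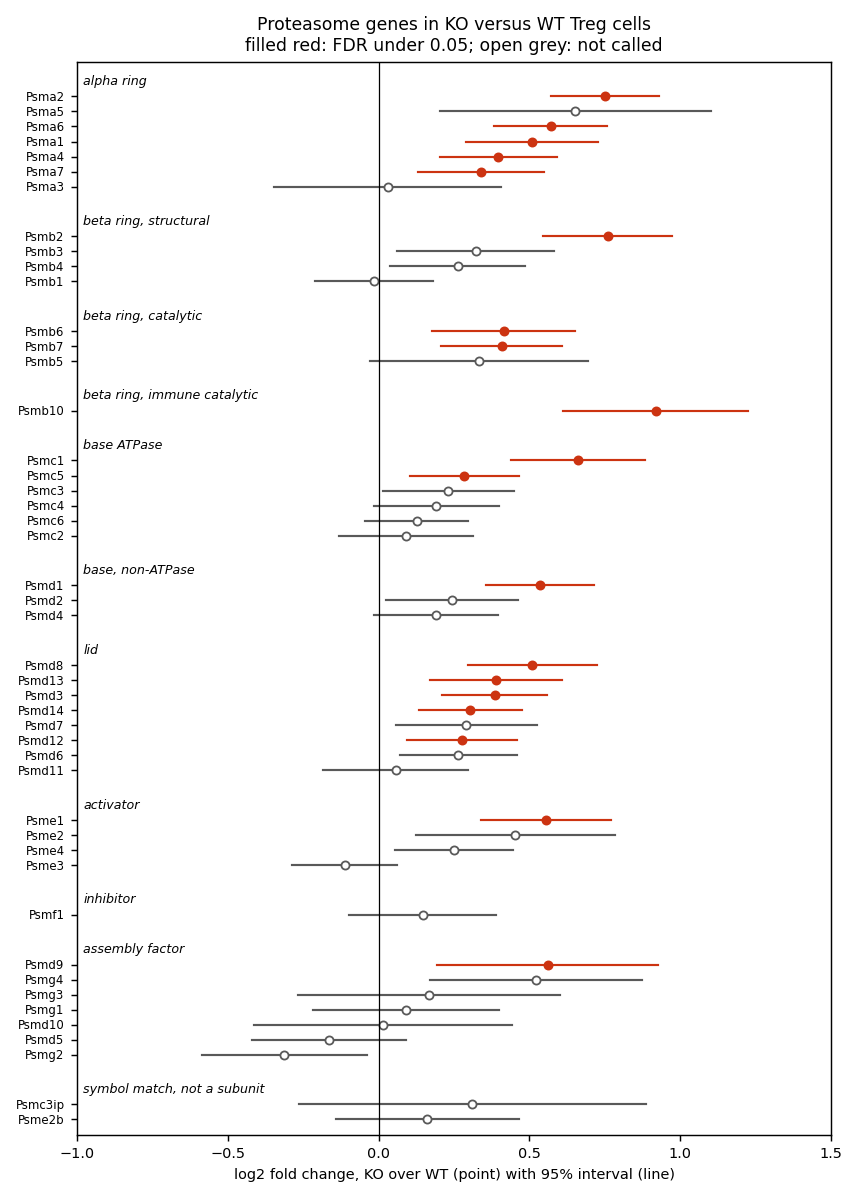
Log2 fold change of KO over WT for the 46 tested genes, grouped by role, with 95% intervals from edgeR's quasi-likelihood fit (3 libraries per group). The 19 red filled points have an FDR under 0.05 and all lie to the right of 0, while the 4 points to its left are open.

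Summed over the 46 genes without Psmc3ip and Psme2b, proteasome transcripts made up 3433, 3260 and 3223 CPM in WT replicates 1 to 3 and 4238, 4006 and 4328 CPM in the KO libraries. The groups did not overlap, and the KO mean was 1.27 times the WT mean. KO replicate 2 was the lowest of the KO libraries for 33 of 46 genes, while KO replicate 3 was the highest for 22 and KO replicate 1, with its markers of other cells, for 17. Relative to the WT mean, the median gene stood at 126% in KO replicate 1, 118% in KO replicate 2 and 127% in KO replicate 3.

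The count of calls moved with single libraries. It was 11 without WT replicate 1, 6 without WT replicate 2, 6 without WT replicate 3 and 10 without KO replicate 3, in fits that called 5.78%, 4.18%, 4.81% and 7.62% of all genes higher. Without KO replicate 1, 13 genes rose (9.69% of all genes), with a median log2 fold change of 0.26, and without KO replicate 2, 23 rose (12.3% of all genes). The calls lost without KO replicate 1 were Psma7, Psmb6, Psmc5, Psmd12, Psmd13 and Psmd14, with log2 fold changes of 0.23 to 0.38 there. The genes gained without KO replicate 2 were Psma5, Psmb4, Psmd7, Psme2 and Psmg4, and Psmd9 was lost. No proteasome gene was called lower in any of these 6 fits. Psma2, Psma6, Psmb2, Psmb10, Psmc1 and Psmd1 were called in all 6 and under the 8 other alternatives tried.

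**Figure D2:**
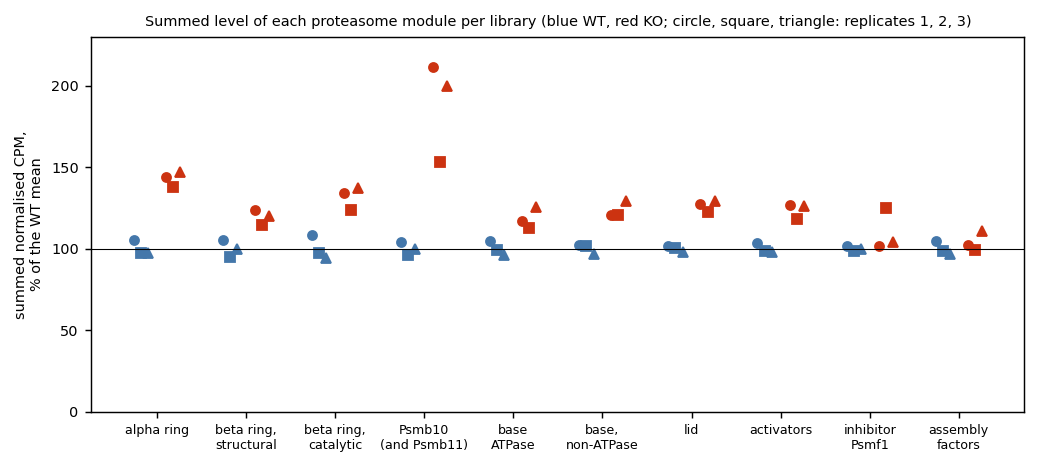
Summed CPM of each module in each library as a percentage of the module's WT mean. The KO libraries lie above the WT libraries in all modules but the assembly factors, for the inhibitor Psmf1 by under 1 CPM in KO replicate 1, and the single immunosubunit Psmb10 (Psmb11 adds under 1 CPM) lies highest.

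The alpha ring, which forms the gate of the core, had the largest share of calls among the modules with more than 1 tested subunit. Of its 7 tested subunits 5 rose, with a median log2 fold change of 0.51, and the summed level went from 446 ± 19.8 CPM in the WT libraries to 638 ± 21.3 CPM in the KO libraries (SD, n = 3). Psma2 (chr13:14613240-14674236, plus strand) stood at 98.9, 97.3 and 97.3 CPM in WT replicates 1 to 3 and 157, 161 and 174 CPM in KO replicates 1 to 3. It had the smallest p of all proteasome genes, a log2 fold change of 0.75 (FDR = 0.00176, SE 0.077). Psma6 (chr12:55384222-55418454, plus strand) stood at 99.1, 89.7 and 91.6 CPM in WT and 136, 145 and 134 CPM in KO, with a log2 fold change of 0.57 (FDR = 0.00491, SE 0.080). Psma1 was measured at 85.3, 78.1 and 76.6 CPM in WT and 122, 105 and 113 CPM in KO, with a log2 fold change of 0.51 (FDR = 0.0121). In these 3 genes even the lowest KO library was well above the highest WT library. Psma4 (log2 fold change 0.40, FDR = 0.0184) and Psma7 (0.34, FDR = 0.0379) also rose. Psma5 had a larger estimate, 0.65 (95% interval 0.20 to 1.10), and just missed the threshold (FDR = 0.0539), with KO replicate 2 at 13.8 CPM close to WT replicate 1 at 13.0 CPM. For Psma3 the estimate was 0.03 (95% interval -0.35 to 0.41).

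The structural beta subunits, which hold the beta ring together without a proteolytic site, were less uniform, with 1 of 4 called and a median log2 fold change of 0.29. Psmb2 (chr4:126677630-126709714, plus strand) stood at 62.8, 56.2 and 60.3 CPM in WT and 106, 93.4 and 103 CPM in KO, 1.69-fold higher (log2 fold change 0.76, SE 0.091, FDR = 0.00293). Psmb1 had 152, 134 and 136 CPM in WT against 134, 139.8 and 141.6 CPM in KO, and its 95% interval ran from -0.21 to 0.18. The groups overlapped for Psmb1 and were far apart for Psmb2, although both subunits belong to the same ring. Psmb3 (0.32, FDR = 0.0857) and Psmb4 (0.26, FDR = 0.0969) lay between them, and Psmb4 was at 0.17 (FDR = 0.246) without KO replicate 1 and 0.32 (FDR = 0.0499) without KO replicate 2.

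The constitutive catalytic subunits provide the core's proteolytic activities, and 2 of 3 rose. Psmb6, the caspase-like site, was at 71.6, 62.0 and 59.7 CPM in WT and 86.8, 79.6 and 90.1 CPM in KO, with a log2 fold change of 0.41 (FDR = 0.0311). Psmb7, the trypsin-like site, was at 56.6, 52.1 and 50.4 CPM in WT and 70.2, 67.8 and 72.0 CPM in KO, also 0.41 (FDR = 0.0184). Neither pair of groups overlapped, although 27.9% of the 51-base sequences in Psmb7 overlap another annotated gene and the counts took no account of strand. Psmb5, the chymotrypsin-like site, was at 11.3, 11.6 and 10.997 CPM in WT and 16.1, 12.1 and 14.4 CPM in KO (log2 fold change 0.33, FDR = 0.173). Its lowest KO library was close to the WT libraries, and without KO replicate 1 its log2 fold change was 0.21 (FDR = 0.402). Over the 14 tested constitutive core subunits 8 rose, with a median log2 fold change of 0.40 and a summed KO level 1.33 times that of WT.

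Psmb10, the immunosubunit that takes the place of Psmb7, showed the largest change of the 46 genes. Its level (chr8:105935735-105938444, minus strand) was 109, 100.1 and 104 CPM in WT and 220.4, 159.8 and 208 CPM in KO, 1.89-fold higher (log2 fold change 0.92, SE 0.13, FDR = 0.00497). The KO libraries were all above WT but spread widely, with KO replicate 2 lowest. Without KO replicate 1 the log2 fold change was 0.80 (FDR = 0.00431). Psmb8 and Psmb9, the other immunosubunits, were outside the symbol rule. Psmb8 was at 367, 299 and 293 CPM in WT and 658, 561 and 690.3 CPM in KO (log2 fold change 1.001, FDR = 0.00369). Psmb9 was at 129, 114 and 110.1 CPM in WT and 187, 117 and 157 CPM in KO (0.40, FDR = 0.147), so that KO replicate 2 lay within the WT range. Its log2 fold change was 0.21 (FDR = 0.343) without KO replicate 1 and 0.57 (FDR = 0.0214) without KO replicate 2. Psmb11, the catalytic subunit particular to thymic epithelium, had 0, 1 and 3 counts in WT and 1 in each KO library, and was not tested.

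Set against the constitutive subunit it replaces, the 3 immunosubunits gave different values. The ratio of Psmb8 to Psmb5 (0.5 CPM added to each) was 31.0, 24.8 and 25.5 in WT and 39.7, 44.6 and 46.5 in KO, 1.61 times higher on the geometric mean. That of Psmb10 to Psmb7 was 1.91, 1.91 and 2.05 in WT and 3.12, 2.35 and 2.87 in KO, 1.41 times higher. In both, every KO library was above every WT library, which in an exact two-sided permutation test gives p = 0.1, the smallest that 3 against 3 allows (0.15 adjusted over the 3 ratios). The ratio of Psmb9 to Psmb6 was 1.79, 1.84 and 1.84 in WT and 2.15, 1.47 and 1.74 in KO. Here the KO libraries lay on both sides of WT (exact p = 0.7), and the log2 difference of -0.05 became 0.09 without KO replicate 2. The KO libraries spread more widely in the ratios of Psmb9 and Psmb10. KO replicate 1, the library with the most macrophage and neutrophil transcripts, was the highest in both. It was the lowest KO library in the ratio of Psmb8 to Psmb5, and the part of those transcripts in the ratios was not tested.

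**Figure D3:**
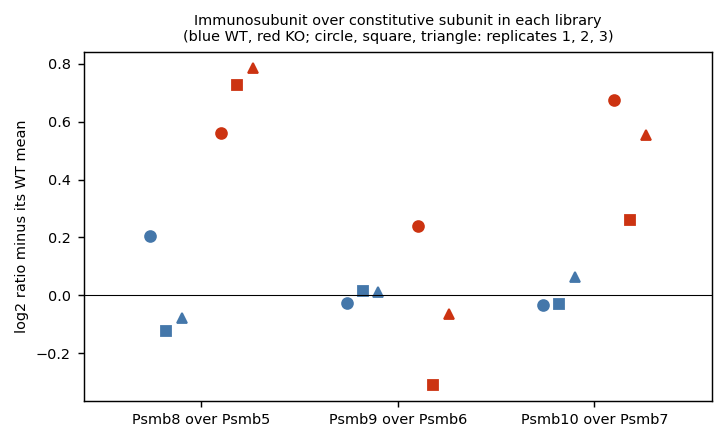
Log2 ratio of each immunosubunit to the constitutive subunit it replaces, minus the WT mean of that ratio, in each of 3 WT and 3 KO libraries. All KO points lie above all WT points for Psmb8 over Psmb5 and Psmb10 over Psmb7, and on both sides of them for Psmb9 over Psmb6.

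Per kilobase of the principal transcript, the pairs also started from different levels. In WT, Psmb8 had 196 CPM per kb against 12.6 for Psmb5, Psmb9 had 87.1 against 80.8 for Psmb6, and Psmb10 had 79.5 against 45.7 for Psmb7. In KO these levels were 391 and 15.8, 114 and 107, and 149.6 and 60.4 CPM per kb. Psmb5, the lowest of these, shares sequence with other loci, as described further on, and the part of this in its level was not tested.

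In the base, the ATPases that unfold substrates gave 2 calls among 6, with a median log2 fold change of 0.21. Psmc1 (chr12:100110154-100123405, plus strand) was at 64.3, 58.7 and 62.5 CPM in WT and 100.4, 87.9 and 104 CPM in KO, with a log2 fold change of 0.66 (FDR = 0.00500, SE 0.095). Psmc5 rose by less (0.28, FDR = 0.0433). Psmc2, Psmc3, Psmc4 and Psmc6 had log2 fold changes between 0.09 and 0.23 and FDR values of 0.124 or more. The interval of the log2 fold change of Psmc1 (0.44 to 0.88) met those of Psmc5 (0.10 to 0.47) and Psmc3 (0.01 to 0.45), and differences between the ATPases were not tested. Of the base subunits without ATPase activity, the scaffold Psmd1 (chr1:86064387-86139151, plus strand) was at 95.8, 101 and 99.5 CPM in WT and 148, 139 and 140.3 CPM in KO, 1.45-fold higher (log2 fold change 0.53, SE 0.076, FDR = 0.00497). Its libraries formed tight groups far apart. The scaffold Psmd2 (0.24, FDR = 0.111) and the ubiquitin receptor Psmd4 (0.19, FDR = 0.174) were not called.

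The lid, which removes ubiquitin chains from substrates, rose in 5 of the 8 subunits matched by symbol, with a median log2 fold change of 0.30. Psmd8 was at 119, 116 and 114 CPM in WT and 177, 149 and 169.7 CPM in KO (log2 fold change 0.51, FDR = 0.0111), and Psmd3 at 109, 110.2 and 107 CPM in WT and 137, 148 and 139 CPM in KO (0.38, FDR = 0.0142). Neither gene's groups overlapped. Psmd14, the deubiquitinase of the lid, rose from 78.8 ± 1.31 to 96.9 ± 2.25 CPM (0.30, FDR = 0.0295). Psmd13 (0.39, FDR = 0.0298) and Psmd12 (0.28, FDR = 0.0483) were the other calls. Psmd7, the partner of Psmd14 (0.29, FDR = 0.0831), Psmd6 (0.26, FDR = 0.0643) and Psmd11 (0.06, FDR = 0.734) were not called. Psmd11, the gene with the miR-142a-3p match printed above, was at 53.9, 56.0 and 52.2 CPM in WT and 51.7, 53.1 and 63.2 CPM in KO, and its groups overlapped. Taking base and lid as 1 regulatory particle, 8 of the 17 subunits matched by symbol rose. All 17 estimates were positive and the summed level was 1.23 times higher in KO.

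**Figure D4:**
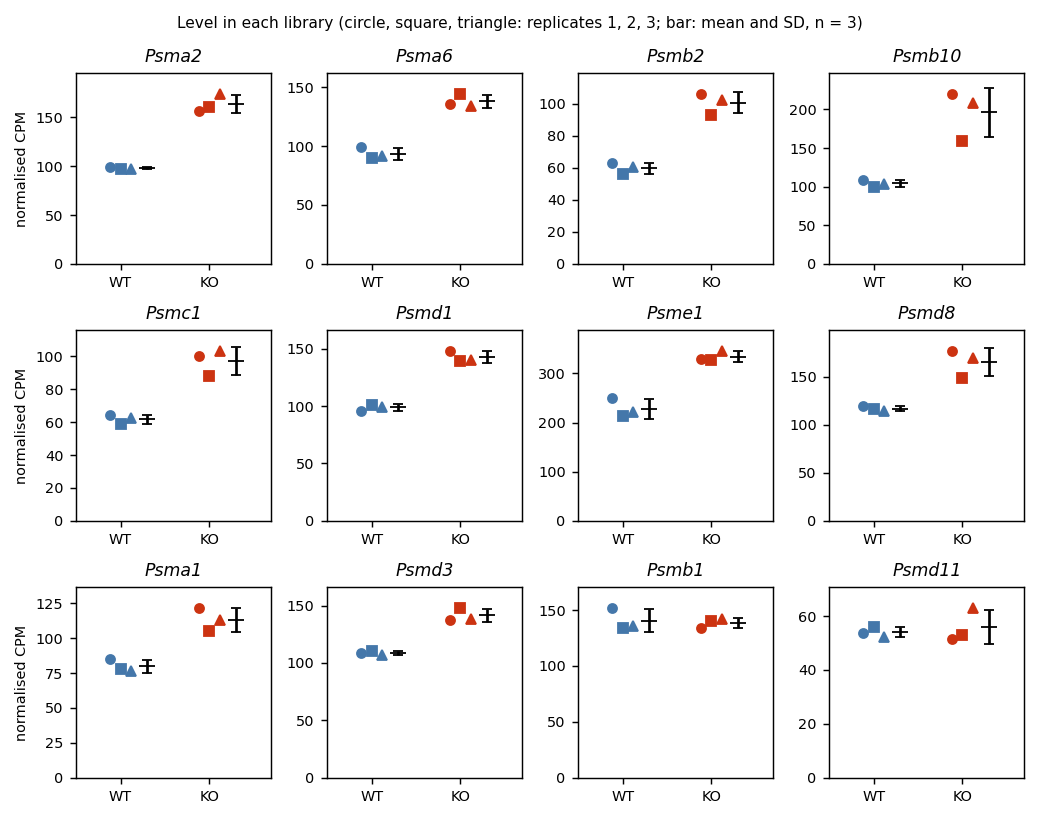
CPM in each library, with mean and SD (n = 3), of the 10 proteasome genes with the smallest p and, for contrast, of Psmb1 and Psmd11. In the first 10 panels every KO library lies above every WT library, while in the last 2 the groups overlap.

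The activators open the core in place of the regulatory particle. Psme1 and Psme2 together form the activator induced by interferon gamma. Psme1 was at 251, 213 and 221 CPM in WT and 329, 327 and 347 CPM in KO, 1.47-fold higher (log2 fold change 0.56, SE 0.092, FDR = 0.00849). Psme2 was at 73.6, 64.9 and 64.1 CPM in WT and 104, 74.0 and 98.2 CPM in KO (0.45, 95% interval 0.12 to 0.78, FDR = 0.0640). Both had non-overlapping groups, but for Psme2 the gap between WT replicate 1 and KO replicate 2 was under 1 CPM. Its log2 fold change was 0.34 (FDR = 0.128) without KO replicate 1 and 0.60 (FDR = 0.0108) without KO replicate 2. Psme2b, its intronless copy, was at 60.2, 64.3 and 67.3 CPM in WT and 79.2, 58.4 and 75.7 CPM in KO (0.16, FDR = 0.419), and reads of the 2 genes cannot be fully separated. Psme3, which forms a nuclear activator, was at 167, 171 and 169 CPM in WT and 161, 149.8 and 157 CPM in KO (-0.11, FDR = 0.325). It was 1 of the 2 genes with every KO library below WT. Psme4, the large single-chain nuclear activator, was at 115, 127 and 119.8 CPM in WT and 150.1, 141 and 137 CPM in KO (0.25, FDR = 0.0781). The inhibitor Psmf1 was at 48.1, 46.6 and 47.4 CPM in WT and 48.2, 59.3 and 49.2 CPM in KO (0.15, FDR = 0.361), with KO replicate 2 alone set apart.

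Assembly factors had the smallest median log2 fold change of the modules, 0.09, with 1 call among 7. Their summed level was 156 ± 6.80 CPM in WT and 163 ± 9.49 CPM in KO. Single factors ran from -0.31 to 0.56, so the median and the sum join moves in opposite directions. Psmg1 and Psmg2 are the chaperone pair that starts the alpha ring, and neither was called. Psmg1 was at 19.5, 16.1 and 17.0 CPM in WT and 17.8, 17.8 and 20.2 CPM in KO (0.09, FDR = 0.665). Psmg2 was at 20.7, 22.1 and 21.8 CPM in WT and 18.2, 15.8 and 17.8 CPM in KO (-0.31, 95% interval -0.59 to -0.04, FDR = 0.103), with every KO library below WT. The other pair of core chaperones gave 11.6, 9.01 and 7.90 CPM in WT and 10.5, 10.1 and 11.2 CPM in KO for Psmg3 (0.17, FDR = 0.567). For Psmg4 the values were 12.6, 10.2 and 12.4 CPM in WT and 16.9, 15.1 and 18.1 CPM in KO (0.52, FDR = 0.0503), just outside the threshold and with no overlap.

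Of the chaperones that assemble the base, Psmd9 was at 20.1, 17.9 and 20.4 CPM in WT and 25.7, 35.0 and 25.1 CPM in KO, and rose (log2 fold change 0.56, FDR = 0.0458). Its call held under 5 of the 14 alternatives, and without the high KO replicate 2 the FDR was 0.0530 at a log2 fold change of 0.40. Psmd5 was at 54.2, 55.8 and 52.8 CPM in WT and 46.2, 43.3 and 55.2 CPM in KO (-0.16, FDR = 0.328). Psmd10, also known as gankyrin, was at 25.6, 23.0 and 18.9 CPM in WT and 24.5, 17.7 and 25.6 CPM in KO (0.01, 95% interval -0.41 to 0.44, FDR = 0.966). The groups overlapped for both. The lowest-level genes were thinly covered, with Psmc3ip at 34 to 72 counts per library (0.31, 95% interval -0.27 to 0.89, FDR = 0.411). Psma8, an alpha subunit of the testis, had 0, 4 and 3 counts in WT and 8, 1 and 4 in KO, and was not tested.

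Some subunits share sequence with other annotated loci. Of the distinct 51-base sequences (the read length) in each gene's annotated transcripts, more than 10% also occurred at another annotated locus, mostly a pseudogene, for 11 tested genes. The shares were 68.9% for Psme2b, 55.0% for Psmb3, 54.5% for Psme2, 53.9% for Psma5, 46.6% for Psmb5, 24.9% for Psmd2, 21.9% for Psma3, 18.8% for Psma4, 16.8% for Psmc1, 16.4% for Psmd11 and 10.9% for Psme1. Of these 11 genes 3 rose (Psma4, Psmc1 and Psme1), against 16 of the 35 with a smaller share and 11.6% of all tested genes. The constitutive ring subunits, present in equal number in the core particle, also differed in level. Lengths were those of each gene's longest principal transcript, 2911 bases for Psma2 and 2846 for Psma3 but 914 for Psma7 and 766 for Psmb3. In WT the 14 ranged from 5.82 CPM per kb for Psma3 to 105 for Psma7, and the 4 lowest were Psma3, Psma5 (9.27), Psmb5 (12.6) and Psmb3 (28.2). These are the 4 ring subunits with the largest shares of shared sequence, and none of them was called. How reads with several matches were counted was not given in the sources used here. The part of shared sequence or transcript length in these levels and calls was not tested.

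Outside the symbol rule, 39 partner genes were read in the same fit. They included ubiquitin genes and their activating enzymes, shuttle factors that carry substrates to the proteasome, and associated ligases and deubiquitinases. Others were the segregase Vcp with its cofactors, transcription factors of proteasome genes and peptidases that trim its products. The list also held Adrm1 and Shfm1, subunits of the regulatory particle whose symbols the rule did not match. Their log2 fold changes were 0.09 (FDR = 0.664) and 0.41 (FDR = 0.0809), and neither was called. Only 3 of the 39 rose (11.6% of all genes) and 0 fell (7.27% of all genes), with a median log2 fold change of 0.09. The calls were for Ube3c, a ligase bound to the proteasome, at 89.8, 91.7 and 90.1 CPM in WT and 119, 109 and 118 CPM in KO (0.36, FDR = 0.0211), for the shuttle factor Rad23b, at 124, 146 and 147 CPM in WT and 185, 188 and 173 CPM in KO (0.39, FDR = 0.0297), and for the polyubiquitin gene Ubb. Ubb had 17 to 49 counts per library (0.97, FDR = 0.0420), and near-identical ubiquitin copies make its level uncertain. Without KO replicate 1, Ube3c alone was called, and without WT replicate 1, WT replicate 2, WT replicate 3 or KO replicate 3 none was called higher. Without KO replicate 2, 6 were. Nfe2l1, the transcription factor known to raise proteasome genes when proteolysis fails, was at 147 ± 6.90 CPM in WT and 155 ± 20.9 CPM in KO (0.08, FDR = 0.674). Pomp, which matures the core, was at 76.2 ± 1.01 and 89.1 ± 13.7 CPM (0.23, FDR = 0.220).

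Other multi-subunit assemblies read the same way had smaller medians. The TRiC chaperonin, the folding chamber of the cytosol, gave 2 calls among 8 subunits (11.6% of all genes). These were Cct6a (0.46, FDR = 0.00872) and Cct7 (0.37, FDR = 0.0352). All 8 TRiC estimates were positive, with a median log2 fold change of 0.19. For 5 of the 8, every KO library was above every WT library (22.2% of all genes). The mitochondrial ribosomal proteins gave 6 calls among 72 (11.6% of all genes), with 50 positive estimates and a median of 0.07. The median of the proteasome genes stood at 0.30.

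**Figure D5:**
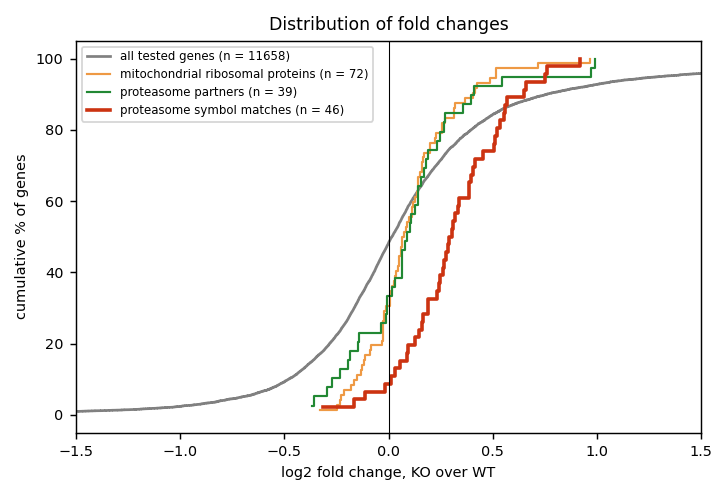
Cumulative share of genes against the log2 fold change of KO over WT, for all 11658 tested genes, 72 mitochondrial ribosomal protein genes, 39 proteasome partners and the 46 proteasome symbol matches (the ends of the x axis are cropped). The red curve of the proteasome genes lies to the right of the others over most of its range, with its middle near 0.30.

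Promoters were read for motifs because members rose together. RefSeq windows of 250 bases before the RefSeq start, 1 per gene, were at hand for 39 of the 46 tested genes. RefSeq and GENCODE starts can differ, and the windows of Psmb10 and Psmd1 reach into the GENCODE positions of these genes given above. A match on either strand to TGACNNNGC, the core of the antioxidant response element bound by Nfe2l1 and Nfe2l2, was found in 5 of 39 (12.8%) and in 12.4% of 8946 windows of tested genes. CCAAT was found in 13 of 39 (33.3%, against 36.7%), and GAAANNGAA, part of the interferon-stimulated response element, in 3 of 39 (7.69%, against 6.24%). Psma2, Psma6 and Psmb10 are shown as those with the smallest p among genes with a window, on their own strand, with CCAAT or its complement in capitals. Psmb2 is named only.
Psma2 (chr13:14612992-14613241, plus strand): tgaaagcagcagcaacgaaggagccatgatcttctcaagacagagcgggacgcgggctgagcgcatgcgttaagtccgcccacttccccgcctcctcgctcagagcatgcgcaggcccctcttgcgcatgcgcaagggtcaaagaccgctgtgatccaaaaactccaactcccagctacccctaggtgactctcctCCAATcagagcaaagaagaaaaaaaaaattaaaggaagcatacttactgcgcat
Psma6 (chr12:55383972-55384221, plus strand): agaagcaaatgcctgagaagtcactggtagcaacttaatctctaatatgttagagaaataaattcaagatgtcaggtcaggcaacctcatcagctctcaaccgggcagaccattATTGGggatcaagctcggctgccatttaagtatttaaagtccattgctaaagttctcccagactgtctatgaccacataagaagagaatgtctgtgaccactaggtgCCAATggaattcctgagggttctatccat
Psmb10 (chr8:105938393-105938642, minus strand): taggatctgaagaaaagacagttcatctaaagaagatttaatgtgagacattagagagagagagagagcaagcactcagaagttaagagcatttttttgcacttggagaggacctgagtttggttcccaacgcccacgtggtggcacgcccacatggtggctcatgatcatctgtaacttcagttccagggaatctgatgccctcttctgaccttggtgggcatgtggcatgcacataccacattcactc
Psma2 and Psma6 hold CCAAT letters at different distances from the start, and Psmb10, the gene with the largest change, holds none of the 3 motifs in this window.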

How the data were processed

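CD4+YFP+ Treg cells were sorted and sequenced as 1 library per mouse. According to the methods, the authors mapped 51-base single-end reads to mm10 with HISAT and counted them per gene, unstranded, with featureCounts. The authors deposited these raw counts, not normalized. These counts were analysed as deposited, with groups from the labels. Differential expression used edgeR 4.0.16 in R 4.3.3: genes with CPM above 1 in at least 3 libraries, TMM scaling, the quasi-likelihood F test and Benjamini-Hochberg adjustment (FDR under 0.05) over all 11658 genes tested. The fit had a biological coefficient of variation of 0.212, and was tested on simulated data. Replicates were separate mice, so p-values cover the spread between mice. Members, roles, lists and tests were chosen with earlier results of these data known. Every called gene was named, and values per library were given for catalytic subunits, activators, inhibitor, assembly factors and the 10 genes with the smallest p; Psmb1 and Psmd11 were added after their values were seen, as were partners that were not called. Alternatives covered scaling, DESeq2 1.42.0, filter, threshold, a replicate block and leaving out each library. All 48 symbols matched GENCODE vM21 (GRCm38, the build that mm10 names). The result of a further promoter motif is not reported here.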

Additional observations from a re-analysis of the deposited data

How the results depend on the processing

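The count of 19 proteasome genes called higher was 11 with library size alone as the scaling (9.13% of all genes tested in that fit rose), 7 at an FDR under 0.01 (4.20%) and 6 to 23 when each library was left out in turn, and it was 18 with RLE size factors (11.3%), 22 with DESeq2 (13.2%), 20 with the newer quasi-dispersion (11.8%), 15 in the 3 edgeR tests together (10.6%) and 14 without a filter (6.41%). No proteasome gene was called lower under any of these 14 alternatives. Library size alone moved the median log2 fold change from 0.30 to 0.22, the median of all genes from 0.02 to -0.06 and the share of higher genes among all calls from 61.4% (1350 higher, 847 lower) to 47.0% (1064 higher, 1201 lower). Relative to the median of all genes, that of the proteasome genes lay between 0.27 and 0.33 in every setting. Deviations of same-numbered WT and KO libraries from their group means correlated at 0.080, -0.0056 and -0.20. Those of differently numbered libraries correlated at -0.18 to 0.21. With 3 libraries per group, these values cannot decide whether the replicate numbers mark pairs. With the replicate number as a block, 10 proteasome genes (9.10% of all genes) and 0 partners were called higher. The 3 partners called higher became 1 without a filter, 0 at an FDR under 0.01 and 0 to 6 when each library was left out. Partners called lower, 0 in the main setting, were 1 with library size alone (Ubqln2) and 1 with DESeq2 (Ubr4), and 0 to 1 when libraries were left out (Ubqln4 without KO replicate 3). The log2 difference of the Psmb9 to Psmb6 ratio, -0.05, ran from -0.188 without KO replicate 1 to 0.0874 without KO replicate 2. Of single named genes, no called direction reversed, 114 values in all lost their call and 10 gained one. The causes of these shifts were not tested, and a fit that leaves a library out also rests on fewer libraries. Depth limits Psma8 and Psmb11, at 8 counts or fewer per library.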

Other observations

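The peptidases that trim proteasome products were not called. Lap3, a leucine aminopeptidase known to be induced by interferon gamma, was at 23.8, 21.5 and 21.5 CPM in WT replicates 1 to 3 and 72.5, 24.9 and 34.2 CPM in KO replicates 1 to 3 (log2 fold change 0.99, 95% interval 0.13 to 1.85, FDR = 0.101). Most of its difference came from KO replicate 1, the library with 2417 CPM of monocyte and macrophage markers, and the part of those transcripts in it was not tested. Thop1, an oligopeptidase of the cytosol, was at 12.8, 9.42 and 10.4 CPM in WT and 18.4, 11.04 and 17.8 CPM in KO (0.54, FDR = 0.144). Lap3 was called higher with DESeq2 (FDR = 0.0327), and without KO replicate 2 both Lap3 (1.28, FDR = 0.0311) and Thop1 (0.75, FDR = 0.0285) were. Tpp2, the giant tripeptidyl peptidase, was at 221 ± 32.9 CPM in WT and 219 ± 30.2 CPM in KO (-0.01, FDR = 0.981), and Npepps at 118 ± 9.37 and 133 ± 26.4 CPM (0.18, FDR = 0.420).

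Some partners lay below WT without a call. Ubr4, a very large ubiquitin ligase associated with the proteasome, was at 897, 1093 and 991 CPM in WT and 737, 685 and 896 CPM in KO (log2 fold change -0.36, FDR = 0.102). The shuttle factor Ubqln2 was at 71.5 ± 8.90 CPM in WT and 58.0 ± 2.01 CPM in KO (FDR = 0.0967). Ubqln4, another shuttle factor, was at 103 ± 5.29 and 85.2 ± 9.28 CPM (FDR = 0.101). Every KO library was below every WT library for 4 of the 39 partners (18.8% of all genes). These were Ubr4, Ubqln2, Ubqln4 and Ddi2 (FDR = 0.214). The shuttle factor Rad23b rose. Whether the shuttle factors differed from one another in their change was not tested. These genes were singled out after their values were seen.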
